A study of Mus musculus with 62 samples.

Results

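H3K27me3, the trimethylation of histone H3 on lysine 27 that marks Polycomb-repressed chromatin, was lower in DKO haematopoietic stem and progenitor cells (HSPCs) than in both Daxx-KO and WT HSPCs at 4608 autosomal sites. These lost sites were chosen from 55700 autosomal sites at which the authors listed a difference between DKO and Daxx-KO at 8 weeks post induction (w.p.i.). A site was taken when it overlapped, by at least 1 bp, a site listed for DKO against WT, and when in both tables each of the 3 DKO values lay below each of the 3 control values. The same 3 DKO libraries entered both tables, so the tables are not independent, and every H3K27me3 value of 8 w.p.i. below describes the choice and is not tested.

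The cells were lineage-negative, c-Kit-positive cells enriched with magnetic beads from the bone marrow of C57BL/6 mice. WT mice were Daxx +/+ Cre +/- and Daxx-KO mice Daxx F/F Cre +/-. DKO mice carried Pu.1 F/F as well as Daxx F/F, also with Cre +/-, where F is a loxP-flanked allele and Cre is the recombinase that deletes it, so the controls carried Cre as well. The study used Mx1Cre, which pI:pC induces, for deletion in adult haematopoiesis, but the labels do not name the Cre line of these libraries and give no age of the mice. The Daxx line came from C57BL/6N and the Cre and Pu.1 lines from C57BL/6J, and mice lacking Pu.1 alone were not analysed here, so the effect of losing Pu.1 cannot be told apart from that of losing both. CUT&Tag, in which an antibody directs the Tn5 transposase to the chromatin it binds, yielded 3 libraries for each group at 8 w.p.i. for H3K27me3 and for H3K9me3. Daxx-KO and WT had 2 libraries each for H3K27ac, H3.3, Pu.1 and H3K9me3 at 3 w.p.i. and again at 24 w.p.i., when H3K27me3 was profiled too.

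H3K27me3 is written by the Polycomb repressive complex PRC2 and spreads over genes that a lineage keeps silent, such as developmental transcription factors in blood cells. Daxx is a chaperone of the histone variant H3.3, and Pu.1, the product of Spi1, is an ETS transcription factor required for myeloid and B-lymphoid development. Loss of the mark at a gene does not by itself show that the gene is transcribed.

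The lost sites were mostly CpG-poor stretches in introns and between genes, as were the listed sites as a whole. Their median of 1.00 CpG per 100 bp was slightly above the 0.909 of all listed sites. The 200 bases in the middle of 6 lost sites are given below on the plus strand of mm10. Each CpG dinucleotide, in which Polycomb-bound promoters are usually rich, is in capitals. They were picked to show the widest lost site (in Prkcz), the site with the second-largest separation of libraries (in Arpp21), the best separated sites of Ebf1 and of the immunoglobulin heavy-chain region (nearest protein-coding gene Adam6a), and those of the paralogues Yap1 and Wwtr1.
Prkcz, chr4:155321601-155321800: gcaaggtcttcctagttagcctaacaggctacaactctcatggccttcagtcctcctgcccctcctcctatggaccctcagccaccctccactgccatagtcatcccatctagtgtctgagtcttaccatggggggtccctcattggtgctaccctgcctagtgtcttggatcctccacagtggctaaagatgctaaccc
Arpp21, chr9:112119351-112119550: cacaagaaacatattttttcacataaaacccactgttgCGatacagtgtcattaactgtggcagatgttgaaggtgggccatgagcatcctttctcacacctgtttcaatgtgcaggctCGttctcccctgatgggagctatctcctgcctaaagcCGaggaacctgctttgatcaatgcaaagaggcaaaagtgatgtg
Ebf1, chr11:44848876-44849075: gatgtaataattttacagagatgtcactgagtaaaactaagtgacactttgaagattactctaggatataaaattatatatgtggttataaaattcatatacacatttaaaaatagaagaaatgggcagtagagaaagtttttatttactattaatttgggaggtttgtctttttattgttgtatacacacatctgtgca
Adam6a, chr12:114264226-114264425: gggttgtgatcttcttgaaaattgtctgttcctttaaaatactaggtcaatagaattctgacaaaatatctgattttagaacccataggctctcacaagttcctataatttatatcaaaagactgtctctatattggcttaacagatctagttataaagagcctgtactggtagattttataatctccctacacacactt
Yap1, chr9:7988951-7989150: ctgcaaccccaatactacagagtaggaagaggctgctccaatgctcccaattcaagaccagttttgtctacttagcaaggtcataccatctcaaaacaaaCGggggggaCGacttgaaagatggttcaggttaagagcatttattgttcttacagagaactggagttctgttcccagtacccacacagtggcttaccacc
Wwtr1, chr3:57573976-57574175: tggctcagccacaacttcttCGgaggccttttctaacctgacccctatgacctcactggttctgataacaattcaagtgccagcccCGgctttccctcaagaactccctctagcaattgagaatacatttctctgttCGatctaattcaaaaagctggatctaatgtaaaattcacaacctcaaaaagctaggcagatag
The windows held 0 to 3 CpG dinucleotides each. None of the 6 windows overlapped an annotated exon.

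Reads of every library were expressed as normalized counts, the number of reads in a site divided by a constant of the library. In the DKO against Daxx-KO table the median lost site held 8.79, 8.04 and 8.68 normalized counts in DKO replicates 1 to 3, and 37.1, 28.3 and 27.6 in Daxx-KO replicates 1 to 3. The DKO against WT table was normalized separately and its sites have their own bounds. For that comparison each lost site was given the values of the overlapping site. Where several met the rule, the site with the largest gap between lowest WT and highest DKO value was used. Neighbouring lost sites could share such a site. The median was 10.2, 8.73 and 9.81 in DKO and 31.5, 35.3 and 31.3 in WT. The library medians of DKO thus lay below those of both control groups, which the choice of sites had fixed. Per kb of site the medians were 9.22 to 10.99 normalized counts in DKO and 32.9 to 44.1 in Daxx-KO. The DKO group mean was 0.282 of the Daxx-KO mean at the median lost site, with quartiles of 0.200 and 0.382, and 0.293 of the WT mean, with quartiles of 0.211 and 0.389. In both tables the control mean was at least 4 times the DKO mean at 1371 lost sites, 29.8% of them, and at 18 lost sites no DKO library had a read in the DKO against Daxx-KO table. In that table the headers gave a mean of 1.36 to 2.91 reads per 600-bp window in DKO and 1.59 to 2.77 in Daxx-KO, so values of a few counts rest on a few reads.

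**Figure D1:**
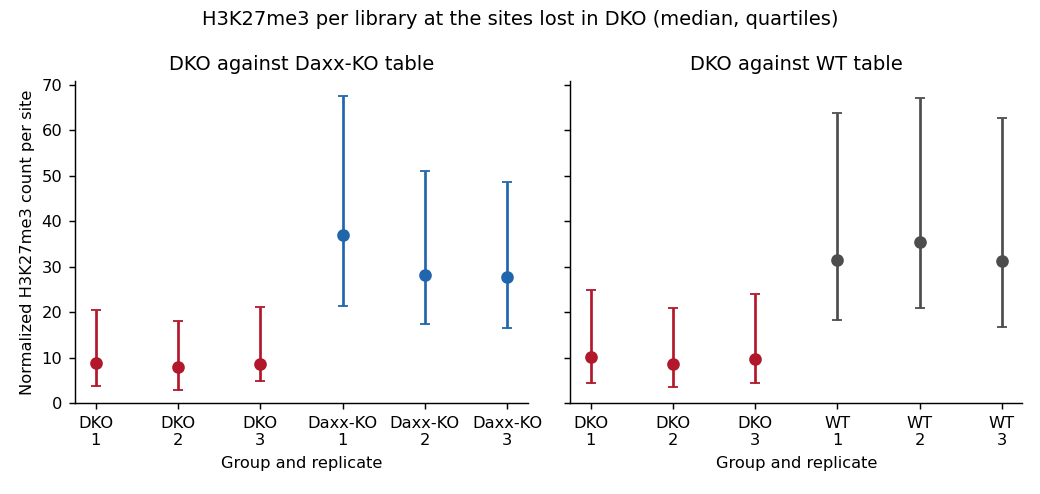
Normalized H3K27me3 counts per site (vertical axis) at the 4608 lost sites in each library, by group and replicate (horizontal axis); points are medians over sites and bars the quartiles. The DKO medians lie between 8.04 and 10.2 and the control medians between 27.6 and 37.1, a separation set by the choice of sites. Values of the DKO against WT table are those of its overlapping sites.

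Losses were fewer than gains in these tables. All 3 DKO values lay below all 3 Daxx-KO values at 28.7% of the autosomal sites of the first table and above them at 55.5%, and in the DKO against WT table these shares were 42.5% and 46.8%. Of the 22468 sites of the first table that overlapped the second, 20.5% were lost in both comparisons and 59.8%, or 13446 sites, were higher in DKO in both. These gained sites serve below as a comparison set. A further 10912 sites were lower than in Daxx-KO without overlapping a listed site of DKO against WT, and 454 overlapped one without being lower there. The size of the excess of gains depended on the scaling. With counts scaled by mean reads per window, chosen after seeing the data, 16615 sites were lower and 26794 higher than in Daxx-KO. Gained sites then numbered 11043.

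Some sites sat at the edge of the rule. At the lost site nearest Ccdc34 DKO held 7.53, 7.04 and 8.68 normalized counts and Daxx-KO 58.5, 8.69 and 21.7, so the sets were parted by 0.01. At the lost site nearest Gabrd, chr4:155383251-155385400, the same margin was met against WT. The overlapping, shorter site of the WT comparison, chr4:155384151-155384750, held 7.92, 9.61 and 4.36 in DKO and 9.62, 27.2 and 33.5 in WT. The lost site itself held 50.2, 78.4 and 45.9 in DKO and 174, 185 and 84.9 in Daxx-KO. A site near Itgb8 missed by 0.03, with 5.02, 13.1 and 4.96 in DKO and 40.4, 13.04 and 29.6 in Daxx-KO. A site near Amotl1 missed by 0.05, with 3.77, 6.03 and 9.93 in DKO and 9.88, 47.8 and 12.5 in Daxx-KO.

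Some lost sites lay in long runs, but most did not. Joined wherever the next lost site began within 50 kb, they formed 2384 runs. A single site made up 1493 of these, 150 runs of 5 or more held 1264 of the 4608 lost sites, and 35 runs of 10 or more held 570. Runs of all listed sites were not computed. The sites of a run are neighbours in the same chromatin and are not independent of each other. The nearest protein-coding genes numbered 1963, of which 1054 were nearest to a single lost site.

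Ebf1, which encodes a transcription factor that commits progenitors to the B lineage, was nearest to the most lost sites, 43 of the 85 sites of the table nearest to it. All 43 overlapped the gene body, at 69.58 to 390 kb from the start site of a gene 391 kb long (chr11:44617317-45008091, mm10). Summed over these sites, the normalized counts were 350.3, 345.8 and 348.6 for DKO and 1757, 1259 and 1596 for Daxx-KO. Against WT, the sums over the 37 overlapping sites were 555, 528 and 520 in DKO and 2371, 2818 and 1926 in WT. All DKO sums were thus similar and all control sums several times higher, 4.41-fold for Daxx-KO and 4.44-fold for WT. The best separated site, chr11:44847201-44850750 in an intron, held 5.02, 21.1 and 14.9 normalized counts in DKO and 141, 78.3 and 136 in Daxx-KO. Not every listed site of the gene body was lower. Within the stretch of lost sites, those at 74.4, 81.5 and 87.1 kb from the start had higher means in DKO, with 24.4, 58.9 and 42.6 normalized counts per kb, than in Daxx-KO, with 5.81, 21.1 and 15.03. Of the 12 listed sites nearest Ebf1 beyond its 3' end, 10 were higher in all DKO than in all Daxx-KO libraries and 0 were lower. Of the 12 sites before the first lost site, 6 were lower and 4 higher.

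**Figure D2:**
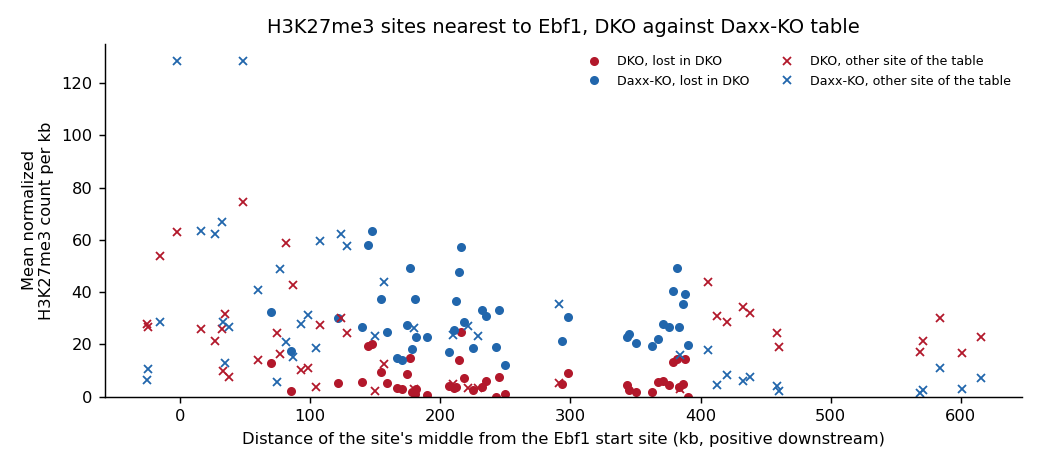
Mean normalized H3K27me3 count per kb (vertical axis) at the 85 sites of the DKO against Daxx-KO table nearest to Ebf1, against the distance of the site's middle from the start site in kb (horizontal axis); red is DKO, blue Daxx-KO, circles are the 43 lost sites and crosses the other sites. The lost sites lie between 69.58 and 390 kb with gaps, and have medians of 4.82 per kb in DKO and 26.8 in Daxx-KO, and 10 of the 12 sites beyond the gene are higher in DKO.

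Adam6a came next with 36 lost sites, because it is the nearest annotated protein-coding gene to a stretch of variable segments of the immunoglobulin heavy-chain locus (Igh), which B-lineage cells recombine. Between the outermost of the 183 annotated Ighv segments and pseudogenes (chr12:113572927-116010093, mm10) the table listed 100 sites. Of these, 76 were lower in all DKO than in all Daxx-KO libraries, 37 were lost in both comparisons and 2 were gained in both. The 37 lost sites lay between chr12:113729001 and 114847750, and 6 of them overlapped an annotated segment. Summed over the 36 sites nearest Adam6a, the DKO libraries held 143, 165 and 208 normalized counts and the Daxx-KO libraries 1353, 1006 and 1199, a 6.89-fold difference. Against WT, the sums over the 35 overlapping sites were 149, 160 and 165 in DKO. In WT they were 953, 1214 and 826, a 6.32-fold difference. Reads from near-identical variable segments may not be placed uniquely, and the study's handling of such reads is not given in the sources used here.

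Ntm, which encodes the neuronal adhesion protein neurotrimin, followed with 33 lost sites of 48 listed and 0 gained. Their sums were 306, 286 and 332 normalized counts in DKO against 1280, 1034 and 1145 in Daxx-KO. The best separated Ntm site, chr9:29960751-29962400, held 149, 125 and 123 in DKO and 226, 228 and 233 in Daxx-KO.

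Prkcz, the gene of the atypical protein kinase C zeta, had the widest and best separated losses. A run of 35 lost sites covered 78.5 kb in all across a 205 kb stretch that also reaches Gabrd, Cfap74 and Tmem52, and the stretch had 0 gained sites. The widest lost site, chr4:155316001-155327400 in an intron, spanned 11.4 kb. It held 171, 73.4 and 175 normalized counts in DKO, beside 787, 936 and 718 for Daxx-KO. The overlapping site of the WT comparison, chr4:155319451-155327150, has its own scale and covers a shorter stretch. That site held 120.0, 34.9 and 129 in DKO beside 479, 463 and 686 for WT. The neighbouring site chr4:155328401-155337400 held 59.0, 31.2 and 78.2 in DKO and 432, 502 and 376 in Daxx-KO. DKO replicate 2 was the lowest library at both sites, and over the 25 sites nearest Prkcz its sum was 542, beside 1086 and 1088 for the other DKO replicates. The other site among the 3 widest, chr2:75606651-75615400, lay between genes 48.2 kb from the nearest protein-coding start site, that of the RNA-binding protein gene Hnrnpa3. It held 402, 300 and 251 in DKO and 1736, 1261 and 1460 in Daxx-KO.

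Yap1 and Wwtr1, which encode the paired transcriptional co-activators YAP and TAZ of the Hippo pathway, were both covered by losses. Wwtr1 was singled out after its values were seen. Yap1 was nearest to 16 lost sites of 18 listed, and Wwtr1 to 19 of 26, with 0 gained sites at either gene. The Yap1 sums were 505, 503 and 563 normalized counts in DKO, 1433, 1085 and 1516 in Daxx-KO. The Wwtr1 sums were 460, 502 and 656 in DKO and 1884, 1124 and 1645 in Daxx-KO, so the groups were apart by 2.57-fold at Yap1 and 2.88-fold at Wwtr1. Sytl2, Emp1, Prox1, Sall1 and Gnas were also picked after their values were seen from the genes with many lost sites. They were nearest to 18 to 22 lost sites each, with DKO sums 2.49-fold to 4.65-fold below Daxx-KO. The nearest gene was not always close. A lost site of Sytl2 lay 23 bp from the start of the gene, but one assigned to Emp1 lay 216232 bp and one assigned to Sall1 615363 bp away. Prox1 is a homeobox regulator of lymphatic and liver development, Sall1 a zinc-finger regulator of kidney development, and Gnas encodes a G-protein subunit at an imprinted locus.

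**Figure D3:**
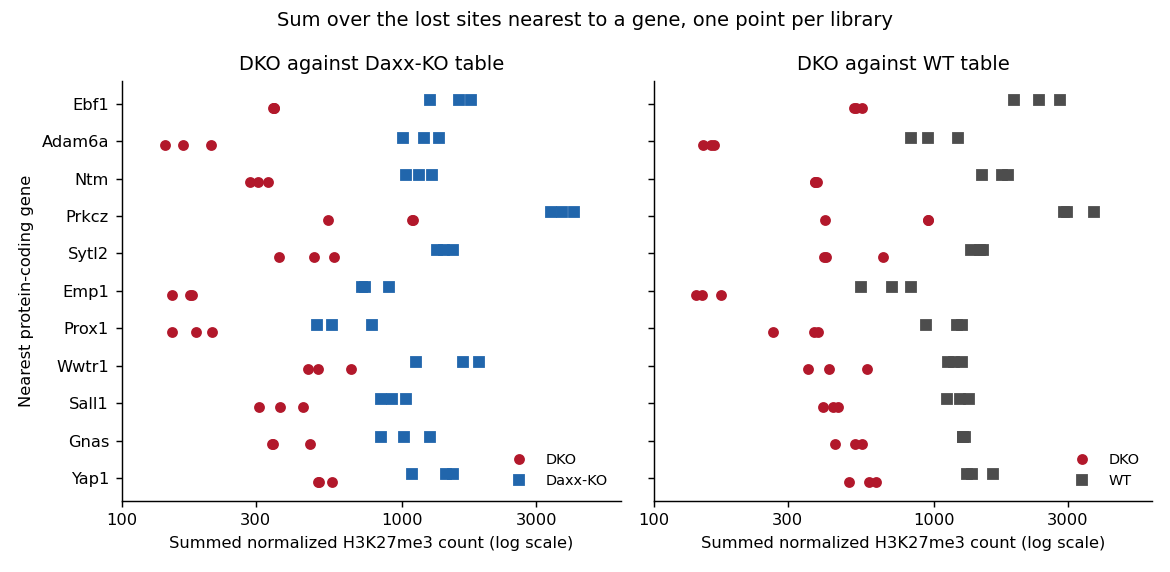
Sum of normalized H3K27me3 counts (horizontal axis, log scale) over the lost sites nearest to each of 11 genes (vertical axis), with 1 point per library; circles are DKO, squares Daxx-KO (left) or WT (right). At Ebf1 the DKO sums are 346 to 350.3 and the Daxx-KO sums 1259 to 1757, and at no gene shown do the groups overlap, as the choice of sites requires. The right panel sums the overlapping sites of the DKO against WT table.

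Other sites with a large gap between the lowest control and the highest DKO value lay at genes of varied function. An intronic site near Arpp21, a neuronal phosphoprotein gene, at chr9:112117101-112121800 held 33.9, 36.2 and 37.2 normalized counts in DKO, beside 350.0, 364 and 409 for Daxx-KO. The overlapping site of the other table, chr9:112117001-112122100, held 35.1, 36.7 and 32.7 in DKO and 532, 477 and 382 in WT. DKO stood 10.5-fold below Daxx-KO at the lost site and 13.3-fold below WT at the overlapping one, with DKO libraries close to each other. At Fam78b (chr1:167003201-167010100) DKO held 154, 122 and 120 and Daxx-KO 404, 360 and 434. At a site 142 kb from the start of Sdc2, the gene of the cell-surface proteoglycan syndecan-2, DKO held 163, 123 and 112 and Daxx-KO 435, 399 and 367. Ndst3, an enzyme gene of heparan sulphate synthesis, held 151, 142 and 112 in DKO and 391, 351 and 294 in Daxx-KO.

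At Vangl1, a planar cell polarity gene, an intronic site (chr3:102192851-102196650) held 81.61, 50.3 and 32.3 normalized counts in DKO and 326, 284 and 251 in Daxx-KO. Luzp2 showed 141, 138 and 72.0 in DKO and 408, 334 and 271 in Daxx-KO at a site overlapping its start. The smallest fold among the 10 sites with the largest gaps was at Adamts9, a metalloprotease gene, where a high level of 403, 265 and 329 in DKO stood against 582.3, 564 and 534 in Daxx-KO, 1.69-fold.

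The position of the lost sites, which the rule did not use, was close to that of all listed sites. By the middle of the site, 48.2% were intronic, 46.6% intergenic and 5.19% exonic, against 45.02%, 50.1% and 4.91% of all sites of the table. Sites within 1 kb of an annotated transcription start site (TSS) made up 13.2% of the lost sites (Wilson 95% interval 12.3 to 14.2), 11.9% of all sites (11.7 to 12.2) and 11.04% of the gained sites (10.5 to 11.6). Of the 11366 sites that were lower than in Daxx-KO but were not lost sites, 13.9% were this close (13.3 to 14.5). Here and below such intervals cover counting error only, and neighbouring sites are not independent. The lost sites had a median length of 800 bp (750 bp over all sites) and lay 27.3 kb from the nearest protein-coding TSS, where the gained sites lay 18.9 kb away at the median.

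Lost sites differed more in sequence from the gained sites than from the table as a whole. Their median GC content was 46.4%, with 1.00 CpG per 100 bp and 14.0% of bases in repeats, against 45.1%, 0.909 and 17.5% over all sites and 44.6%, 0.876 and 20.4% at the gained sites. Regions with a GC content of at least 50% and at least 0.6 of the CpG expected from it, as in CpG islands, made up 1.28% of the lost (0.994 to 1.65), 1.24% of all and 0.238% of the gained sites (0.169 to 0.336). At the 11366 sites lower than in Daxx-KO that were not lost sites, this share was 2.64% (2.36 to 2.95). Lost sites were 8.27% of the listed sites of the table. The highest shares of the 19 autosomes were 10.98% on chromosome 12 (9.74 to 12.4) and 10.5% on chromosome 7 (9.56 to 11.5), and the lowest 5.24% on chromosome 17 (4.39 to 6.24) and 5.32% on chromosome 19 (4.28 to 6.59).

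The word GAGGAAGT, the core of the Pu.1 motif, was sought on both strands (its other strand reads ACTTCCTC). It occurred in 5.62% of the lost sites (4.99 to 6.32), 5.69% of all sites (5.50 to 5.88) and 7.41% of the gained sites (6.98 to 7.87). Per Mb of sequence, 61.5 lost, 67.5 of all and 73.7 gained sites held it, and of the shorter, 300-base RefSeq promoters of GRCm38.p6 3.20% held it, which is 107 per Mb. Among the sites named here, Vangl1 and a site near the developmental factor gene Osr1 each held a match, shown in capitals within 60 bases of the plus strand of mm10.
Vangl1, chr3:102195011-102195070: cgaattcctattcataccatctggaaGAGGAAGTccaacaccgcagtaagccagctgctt
Osr1, chr12:9586258-9586317: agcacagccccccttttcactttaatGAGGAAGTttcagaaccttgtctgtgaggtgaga
A match of letters is not a bound site, and Pu.1 binding was not measured in these 9 libraries.

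Of 169 developmental transcription factors of non-blood lineages, 167 of them on autosomes, 66 were nearest to at least 1 lost site, 74 to a gained site and 156 to any listed site. Counted instead by a lost site in the gene body or 10 kb upstream, 26 had one. As shares of sites, this list took 4.08% of the lost sites (3.55 to 4.69), 1.963% of the gained (1.74 to 2.21) and 3.16% of all sites (3.02 to 3.31). Foxa2, a regulator of endoderm, was nearest to 13 lost sites, Irx3 and Foxb1 to 11 each, and Gsc and Sox9 to 10 each. Among the best separated sites of the list were those at Sim1, with 421, 369 and 386 normalized counts in DKO and 682, 568 and 658 in Daxx-KO, and at Osr1, with 70.3, 76.4 and 74.4 against 241, 115 and 130.3. Their folds, 1.62 and 2.20, were below the 3.55-fold of the median lost site.

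Of 64 morphogens and their secreted regulators, 24 were nearest to a lost site, 28 to a gained and 59 to any site, and they took 1.497% of the lost sites (1.18 to 1.89), 0.528% of the gained and 0.980% of all. Nrg1, which encodes the growth factor neuregulin, and Bmp2, a bone morphogenetic protein, had 8 lost sites each and Slit3 had 7. A CpG-rich site at Bdnf, the gene of a neurotrophin, held 82.9, 44.2 and 55.8 in DKO and 132, 110 and 111 in Daxx-KO. The best Nrg1 site held 27.6, 51.3 and 44.7 in DKO and 178, 77.2 and 87.5 in Daxx-KO, and at Wnt7a DKO held 25.1, 25.1 and 29.8 and Daxx-KO 84.8, 63.0 and 75.02.

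The list of 28 B-lineage genes took 1.04% of the lost sites (0.787 to 1.38), against 0.416% of the gained and 0.415% of all sites. However, 43 of its 48 lost sites were at Ebf1, with 4 at Lef1 and 1 at Cr2, so 3 genes of the list had a lost site and 11 a gained site. Of 37 T-lineage and innate lymphoid genes, 6 had a lost site, led by Tox2 with 6 sites and Bcl11b, a T-cell commitment factor, with 3. That list took 0.304% of the lost sites (0.181 to 0.509), 0.335% of the gained and 0.338% of all sites. At Cd247, the gene of the T-cell receptor zeta chain, DKO held 56.5, 30.2 and 31.02 and Daxx-KO 166, 155 and 115.

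The 36 myeloid and neutrophil genes had 8 lost sites, among them 2 at Csf3r and 2 at Irf8, which was 0.174% of the lost and 0.196% of all sites. Of 39 stem-cell and progenitor regulators, 4 had 7 lost sites in all, led by Zfpm1 with 3, 0.152% of the lost sites (0.0736 to 0.313), against 0.372% of the gained and 0.278% of all sites, which lay nearest to 28 of these genes. At Zfpm1 all DKO values were at most 6.28, against 10.9 to 13.2 in Daxx-KO.

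In the erythroid and megakaryocyte list only Sox6 had lost sites, 3 of them. This was 0.0651% of the lost sites (0.0221 to 0.191), against 0.283% of the gained and 0.181% of all sites, which lay nearest to 13 genes of the list. A CpG-rich one overlapping an annotated TSS, 1.25 kb from that of Sox6, was among them and held 314, 213 and 232 in DKO against 698, 520 and 533 for Daxx-KO. The mast-cell, basophil, eosinophil and dendritic-cell list had 3 lost sites at Mitf and 1 at Tcf4, 0.0868% of the lost (0.0338 to 0.223) and 0.135% of all sites. The best Mitf site held 47.7, 40.2 and 48.4 in DKO and 119, 60.9 and 90.2 in Daxx-KO. Of 37 Polycomb and H3K27 demethylase genes, 34 of them on autosomes, 1 had a lost site, Scmh1. It held 21.4, 13.1 and 11.2 in DKO and 49.4, 43.5 and 24.4 in Daxx-KO. This was 0.0217% of the lost sites (0.00383 to 0.123) against 0.178% of all sites, with 8 of the genes nearest to a gained and 20 to any site. The interferon and nucleic-acid sensing list held 35 gene names, of which 32 were found on autosomes. None of these was nearest to a lost site, 4 were nearest to a gained one and 7 to any, with 23 sites or 0.0413% of all sites. Of the markers that define the labelled and neighbouring cell types, 5 of 7 for HSPCs, 3 of 6 for neutrophils and 1 of 3 autosomal erythroid markers were nearest to any listed site, 2, 1 and 1 to a gained site and 0 to a lost site. Of 4 B-cell markers 2 were nearest to any site, 1 to a gained site and Ebf1 to lost sites. All 4 T-cell markers were nearest to a listed site, 3 to a gained site and Bcl11b to lost sites. The tables list only sites of difference, so they give no level of these markers and the labelled cell type could not be checked. A change in the share of B-lineage or other cells and a change within the cells cannot be told apart in these libraries.

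**Figure D4:**
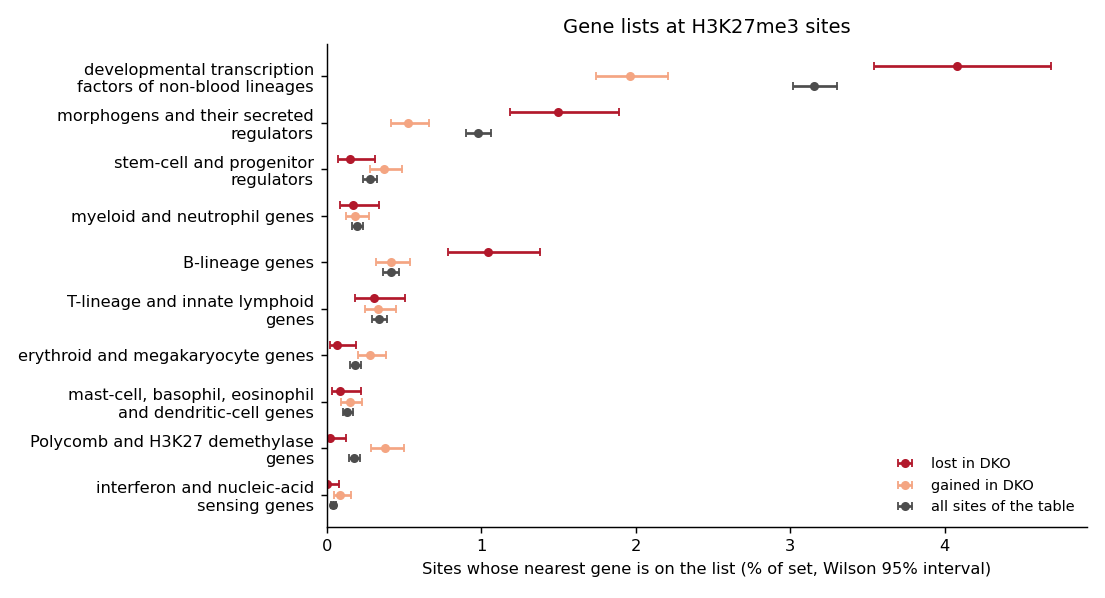
Share of sites whose nearest protein-coding gene is on a list (horizontal axis, percent of the set, with Wilson 95% intervals) for 10 gene lists (vertical axis), at the lost sites, the gained sites and all sites of the DKO against Daxx-KO table. Developmental transcription factors take 4.08% of the lost and 1.963% of the gained sites, and the 1.04% of the B-lineage list rests on Ebf1.

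Few sites were listed within 50 kb of the starts of Daxx, Spi1, Fbp1 and Fbp2, the genes deleted or followed in the study. They numbered 2, 2, 5 and 11, of which 0 were lost, while 1 near Fbp1 and 2 near Fbp2 were gained, in windows that overlap each other. The paper reports a marked drop of H3K27me3 over the Fbp1 and Fbp2 locus in both Daxx-KO and DKO cells. The direction of these gained sites differs from that. They are single listed sites and not the coverage of the locus, and the difference was not tested. Within 5 Mb on each side of Daxx, 8 of 360 listed sites were lost (2.22%), and around Spi1 8 of 192 (4.17%), beside 8.27% of all sites.

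H3K9me3, a mark of constitutive heterochromatin, was measured at 8 w.p.i. in libraries of the same mice, 3 per group, with another antibody. The DKO against Daxx-KO table for H3K9me3 listed a site at 33 of the 4608 lost sites. At 24 of these all DKO values were higher (0.521%) and at 4 lower (0.0868%), whereas among the other H3K27me3 sites 0.194% overlapped a higher and 0.141% a lower site. Against WT, with the same DKO libraries, 29 lost sites overlapped an H3K9me3 site higher in DKO (0.629%) and 1 a lower site (0.0217%), against 0.276% and 0.0665% of the other sites. Any listed H3K9me3 site overlapped 0.448% of the other sites for DKO against Daxx-KO and 0.436% for DKO against WT. Within these H3K9me3 tables themselves, 44.8% and 47.7% of the sites were higher in DKO and 24.8% and 17.9% lower. Few lost sites thus carried a listed H3K9me3 difference, and these were mostly higher in DKO. Daxx-KO against WT listed 49 lost sites as higher and 4 as lower, 1.06% and 0.0868%, against 0.851% and 0.2% of the other sites, of which 1.1% overlapped any site of that table. In the whole of it, 57.6% of sites were higher and 31.5% lower.

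The largest H3K9me3 difference was in an intronic site 332 kb from the start of Zranb2, of which 55.4% was repeat sequence. Its overlapping H3K9me3 site held 36.6, 91.5 and 30.6 normalized counts in DKO and 4.96, 4.99 and 9.23 in Daxx-KO (exact permutation test, two-sided, p = 0.1, the smallest that 3 against 3 libraries allow). The overlapping H3K9me3 site listed against WT held 38.8, 55.3 and 30.7 in DKO and 1.80, 3.94 and 7.16 in WT. H3K27me3 at the lost site was 11.3, 4.02 and 16.1 in DKO and 86.5, 20.7 and 18.4 in Daxx-KO. At Trpm8, a cold-sensing ion channel gene, H3K9me3 was 81.4, 32.7 and 35.7 in DKO and 11.9, 10.98 and 3.84 in Daxx-KO. Near Tgfb2, 90.3% of the lost site was repeat sequence. The H3K9me3 site that overlapped it held 34.5, 27.6 and 36.04 in DKO and 1.80, 2.96 and 7.88 in WT. In the lower direction, sites near Chd6 and Fbxo27 held at most 2.19 in DKO and 4.61 to 10.8 in Daxx-KO, and one near Kctd3 held 0.00, 6.91 and 3.07 in DKO and 14.4, 49.8 and 15.8 in WT. Each of these has the same exact permutation p of 0.1. At all the H3K9me3 sites named here, choosing sites whose libraries did not overlap had fixed this value.

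At 24 w.p.i. H3K27me3 was compared between 2 Daxx-KO and 2 WT libraries that the choice of sites did not use. A listed site overlapped 1482 of the lost sites (32.2%), higher in Daxx-KO at 747 (16.2%) and lower at 737 (15.99%), against 17.7% and 12.7% of the other sites of the 8-week table. Of the lost sites with a difference in 1 direction, 49.6% were lower in Daxx-KO (47.04 to 52.2), against 41.5% of the other sites (40.7 to 42.3) and 35.9% of the gained sites (34.4 to 37.4). In these cells, which keep Pu.1, the lost sites were thus about evenly divided in direction. Of all sites of the 24-week table, 40.8% were higher and 56.8% lower in Daxx-KO, and 30.4% of the other 8-week sites overlapped one. The largest lower difference overlapped a lost site of Sytl2, with 719 and 799 in Daxx-KO against 1880 and 1771 for WT, and the next one near Hcfc2, with 906 and 1041 against 1911 and 2365. The largest higher one, near Laptm4a, held 1501 and 1404 in Daxx-KO against 632 and 792 for WT and overlapped 2 lost sites. Exact permutation of 2 against 2 libraries gives p = 0.3333 for each, the smallest possible, which choosing sites without overlap of the groups had fixed.

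Pu.1 and H3.3 were each profiled in 2 Daxx-KO and 2 WT libraries at both 3 w.p.i. and 24 w.p.i. At 3 w.p.i. a listed Pu.1 site overlapped 909 lost sites (19.7%), at 597 lower in Daxx-KO (12.96%) and at 321 higher (6.97%), against 8.89% and 7.79% of the other sites. Of those in 1 direction, 65.9% were lower (62.7 to 69.0), against 53.5% of the other sites (52.4 to 54.6) and 53.4% of the gained ones (51.3 to 55.5). At 24 w.p.i. the Pu.1 differences were 711 lower (15.4%) and 630 higher (13.7%), against 14% and 11.3% of the other sites. The lower share was then 53.4%, beside 55.9% of the other sites, so the lower share at the lost sites was no longer above that of the other sites. Any Pu.1 site overlapped 16.6% of the other sites at 3 and 24.5% at 24 w.p.i. Across the Pu.1 sites as a whole, 54.1% were higher and 44% lower in Daxx-KO at the earlier time, and 46.9% and 51.3% at the later one.

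H3.3 at 3 w.p.i. was lower in Daxx-KO at 450 lost sites (9.77%) and higher at 332 (7.20%), against 7.1% and 7.55% of the other sites. The share lower in 1 direction was 57.8% (54.2 to 61.2), against 48.4% of the other sites (47.2 to 49.6). At 24 w.p.i. it was 49.8% and 49.6%, with 627 lost sites lower and 631 higher, against 12.2% and 12.4% of the other sites. Any H3.3 site overlapped 14.5% of the other sites at 3 and 23.9% at 24 w.p.i. Of all listed H3.3 sites, 57.7% were higher and 40.7% lower at the earlier time, and 51.3% and 47% at the later one. Libraries of the same mice were used for Pu.1 and H3.3 at 3 w.p.i., so these differences are not independent of each other.

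H3K27ac, a mark of active promoters and enhancers on the same lysine, was listed at 315 lost sites at 3 w.p.i. and 625 at 24 w.p.i. At 3 w.p.i. 197 were lower in Daxx-KO (4.28%) and 124 higher (2.69%), against 4.81% and 2.68% of the other sites. At 24 w.p.i. 351 were lower (7.62%) and 287 higher (6.23%), against 8.65% and 6.99%, shares close to each other at both times. Any H3K27ac site overlapped 7.5% and 15.3% of the other sites at these times. Of all listed H3K27ac sites, 39.2% were higher and 58.4% lower at 3 w.p.i., and 41.3% and 56% at 24 w.p.i. The largest higher H3K27ac differences at 24 w.p.i. overlapped lost sites at the start of Chst13, with 8903 and 8087 in Daxx-KO against 4125 and 4557 for WT, and near Tinagl1, with 3279 and 4444 against 1669 and 1376. The largest lower ones were near Acss1, with 692 and 749 in Daxx-KO against 1468 and 1347 for WT, and Laptm4a, with 95.9 and 319 against 870 and 801. At 3 w.p.i. Sgms2 was higher, with 169 and 228 against 86.0 and 19.9, as was Gm17509, with 112 and 107 against 45.1 and 61.8. Myo5b, with 47.5 and 30.6 against 231 and 201, and Marcks, with 13.6 and 0.85 against 103 and 62.9, were lower. For all of these p = 0.3333 by exact permutation, the smallest possible and again fixed by the choice of sites.

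H3K9me3 of Daxx-KO against WT differed at 46 lost sites as higher (0.998%) and 16 as lower (0.347%) at 3 w.p.i., against 0.847% and 0.329% of the other sites. At 24 w.p.i. these were 305 (6.62%) and 211 (4.58%), against 5.34% and 3.62%. Any site overlapped 1.17% and 9.02% of the other sites at these times. Of all listed H3K9me3 sites, 78.6% were higher and 21% lower at 3 w.p.i., and 46.9% and 50.3% at 24 w.p.i.

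**Figure D5:**
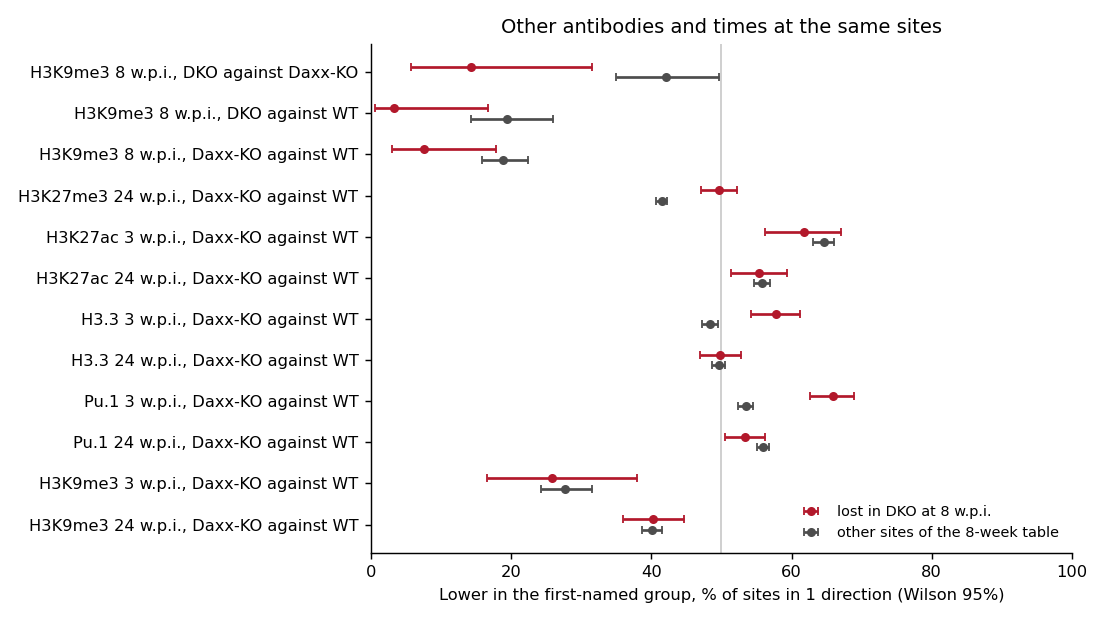
Share of sites lower in the first-named group among those that overlap a listed difference in 1 direction (horizontal axis, percent, with Wilson 95% intervals) for each antibody, time and comparison (vertical axis), at the lost sites and at the other sites of the 8-week H3K27me3 table. The lost sites stand at 65.9% for Pu.1 and 57.8% for H3.3 at 3 w.p.i., beside 53.5% and 48.4% of the other sites, and at 14.3% for H3K9me3 of DKO against Daxx-KO, beside 42.1%.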

How the data were processed

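Bone-marrow HSPCs were profiled by CUT&Tag. Per the labels the reads were handled with CASAVA 1.8.4, cutadapt 1.13, STAR 2.5.3 and bedtools on mm10, with no role given. The authors compared groups with diffReps 1.55.6 (windows of 600 bp, step 50 bp, fragment size 100 bp, negative binomial test, window p-value of at most 0.0001) and deposited a normalized count per site and library, which is reads divided by a library constant. These values are on another scale in each table. The tables also hold the authors' group averages, direction, fold changes and p-values, which were not used. The library behind each value was taken from the mouse names in the table headers, which are numbers or, for 1 WT mouse, the word in its label. The H3K27me3 table of Daxx-KO against WT at 8 w.p.i. was not used, because its header names WT H3K9me3 libraries as controls, and DKO libraries at 24 w.p.i. were not analysed here.

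The lost sites and the gene lists were chosen with earlier results of these data known. Positions count from 1. TSSs came from GENCODE M21, where each site was given the protein-coding gene whose TSS was least distant from its middle, and sequence, repeats and motifs from GRCm38.p6, the assembly of mm10. Promoter sites lay within 1 kb of a TSS. A site of another table was matched at an overlap of 1 bp or more and was called higher or lower when the libraries of the groups did not overlap. Named sites were the 10 with the largest gap between lowest control and highest DKO value (the smaller of both tables, 1 per gene), up to 3 per gene list, those of the 3 genes with most lost sites, the 3 widest, up to 2 per direction for H3K9me3 at 8, H3K27me3 at 24 and H3K27ac at 3 and 24 w.p.i., and those next to the limit. Some sites that this rule names are not reported here. Sites are not replicates, so no test was made across them. Single sites of other marks were tested by exact permutation of libraries, which come from separate mice as the labels name them. These sites were named only where the groups did not overlap. Each p-value was thereby fixed at the smallest possible and measures no spread between mice. Depth is given as the mean reads per window of the headers, 1.20 to 2.91 in the H3K27me3 libraries of 8 w.p.i., and intervals are Wilson 95% intervals of counting error. Python 3.11.15 with NumPy 2.4.6, pandas 2.3.3, SciPy 1.17.1 and pysam 0.24.0 was used, and the functions were tested on simulated data. Alternatives changed the overlap, level, separation, units, promoter width, gene assignment and libraries, and the scaling by mean reads per window was added after seeing the data.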

Additional observations from a re-analysis of the deposited data

Results flagged for a closer look

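At some lost sites a mark differed between Daxx-KO and WT in opposite directions at 3 and 24 w.p.i., with the libraries of the groups not overlapping at either time. Sites that overlapped both a higher and a lower listed site at one time were left out, which for Pu.1 was 37 of the 343 lost sites with a listed Pu.1 site at both times. Opposite directions held for Pu.1 at 139 of the remaining 306 lost sites (45.4%), of which 56 were higher and then lower in Daxx-KO and 83 the reverse. Among the other sites of the 8-week H3K27me3 table the share for Pu.1 was 46.8%. It held for H3.3 at 111 of 242 lost sites (45.9%, beside 46.7% of the other sites) and for H3K27ac at 21 of 60 (35%, beside 37.1%), so for these 3 antibodies the shares were close to those of the other sites. For H3K9me3 it held at 3 of 10 lost sites and at 42 of 200 other sites. The difference between the times was not tested, and each time rests on 2 libraries per group.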

How the results depend on the processing

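No paired analysis was possible because the counts of sites come from no test and equal replicate numbers name different mice in each group. With each library left out in turn the lost sites numbered 4635 to 4876. Under the rule this count can only stay or rise when a library is removed. The median ratio of DKO to Daxx-KO was then 0.271 to 0.317 and to WT 0.284 to 0.315, and median GC was 46.3% to 46.6%. Asking for a control mean of at least 20 left 2962 sites, ratios of 0.342 and 0.353, a promoter share of 15.6%, GC of 47% and 1.06 CpG per 100 bp. Asking that the lowest control be at least 2 times the highest DKO value left 808 sites, ratios of 0.166 and 0.173, a promoter share of 9.78%, GC of 45.3%, 0.824 CpG per 100 bp and 15.4% repeats. Promoters within 3 kb and 250 bp took 24.9% and 7.79%. GC was 46% when sites within 1 kb counted as shared, and 46.7%, with the motif in 6.47%, when sites of the DKO against WT table were the units. Scaling by mean reads per window, chosen after seeing the data, gave ratios of 0.237 and 0.251 and 4710 sites, 4431 of them shared with the 4608. Counting a gene when a site overlapped its body or 10 kb upstream left 26 developmental factors, 1 stem-cell, 1 myeloid, 0 mast-cell and related and 0 Polycomb genes. With a higher group mean of at least 20, the share lower was 0.0% (0 of 9) for H3K9me3 of DKO against Daxx-KO and 22.2% for Daxx-KO against WT at 8 w.p.i., 47.4% for H3K27ac and 50.0% for H3K9me3 at 3 w.p.i. Within 1 kb, H3K27me3 at 24 w.p.i. gave 46.9%. The cause of these shifts was not tested. In the other 82 cases the value moved by less than its spread or interval, or a count by less than 1.5 times. Depth limits the sites of few reads.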

Other observations

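The X chromosome, which the choice of sites left out, held 3863 sites of the DKO against Daxx-KO table. Of these 120 were lower in DKO in both comparisons and 777 were higher in both. On the autosomes the same counts were 4608 and 13446 of 55700 sites. The study used mice of both sexes, and the sex of the mice behind these libraries was not considered here.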
